A study of Mus musculus with 2 samples.

Results

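The Ly6 genes described here are 6 members of a mouse gene family that encodes small cell surface proteins, Ly6a, Ly6c1, Ly6c2, Ly6d, Ly6e and Ly6g. They were taken by name from the 31017 gene symbols of a single table of unique molecular identifier (UMI) counts from mouse spleen cells, and all 6 were present. The series profiles spleen from 2 mice aged 6 to 8 weeks, 1 a model of Wiskott-Aldrich syndrome (WAS-KO) and 1 wild type (WT). Wiskott-Aldrich syndrome is an immunodeficiency caused by loss of an actin regulator of blood cells. No source used here gives the strain, sex or allele, and the label that names the mouse model reads the same for both animals. The table carries 7524 cell barcodes with 1 shared suffix, each barcode occurs once, and nothing ties a barcode to either mouse. It was treated as 1 pooled sample, so the mice are not compared, no test was made, and every interval below covers counting error only.

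Ly6 proteins share a compact disulphide-bonded fold and are mostly held to the outer membrane by a lipid anchor, and immunologists use them to tell blood cell types apart. Ly6a (Sca-1) is known from blood stem cells and activated lymphocytes. Ly6c1 and Ly6c2 encode near-identical proteins that antibodies read together as Ly-6C, the marker that separates classical from nonclassical monocytes. Ly6g is the neutrophil part of the Gr-1 antigen. Ly6d marks lymphoid progenitors that turn to the B lineage. Ly6e (TSA-1 or Sca-2) is broadly expressed, and Ly6a, Ly6c and Ly6e are known to be interferon-inducible.

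Of the 7524 barcodes, 6588 had at least 200 genes and at most 10% mitochondrial UMIs, with a median of 5339 UMIs. Cells were assigned to types by the raw UMIs of lineage genes, none of them a Ly6 gene, and a cell type below always means such a gate. A gate took 5664 cells, 514 carried genes of more than 1 lineage and were set aside as mixed, and 410 stayed ungated. The larger gates held 2946 B cells, 1076 T cells, 454 macrophages, 441 erythroid cells, 248 natural killer (NK) cells and 192 neutrophils. Defining genes kept out of the gating stood above all other cells by 23.1-fold to 120-fold in B cells (Ebf1, Cd22, Blk), by 14.0-fold to 158-fold in T cells (Lck, Lat, Bcl11b) and by 44.2-fold to 1051-fold in neutrophils (S100a8, S100a9, Csf3r). In classical monocytes they ran from 1.29-fold to only 8.58-fold, the lowest maximum of the larger myeloid gates. Conventional dendritic cell gate cDC2 (2 cells, Itgax at 0) and the endothelial gate (1 cell) were not borne out by these genes and are not described on their own. Macrophages, mature dendritic cells and megakaryocytes or platelets were shallow, with median totals of 814.5, 1600 and 831 UMIs.

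All 6 genes lie on chromosome 15 within 397.1 kb (GRCm38, the assembly also called mm10, GENCODE vM21 annotation), in the order Ly6d (74762056 to 74763620, minus strand), Ly6e (74955051 to 74959905, plus), Ly6a (74994877 to 74998031, minus), Ly6c1 (75044018 to 75048830, minus), Ly6c2 (75108158 to 75111970, minus) and Ly6g (75155240 to 75159126, plus). Libraries of this kind read the 3-prime end of a transcript. In the last 400 bases of the longest coding transcript, 23.4% of Ly6c1's 50-base words also occur in Ly6c2, and 25.1% of Ly6c2's occur in Ly6c1. The other 4 members shared none. Counts of Ly6c1 and Ly6c2 are therefore uncertain where the counting could not place a read, and how such reads were treated is not given in the sources used here.

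RefSeq promoter sequence was matched for 3 of the 6 members, the neighbours Ly6c1, Ly6c2 and Ly6g. These are shown because Ly6c1 and Ly6c2 turned out to be counted in different T cell subsets. Each sequence is the 250 bases before the RefSeq start on GRCm38.p6, read 5′ to 3′ on the gene's own strand, and capitals mark bases that differ from Ly6c1 inside the aligned stretch. The windows are chr15:75048838-75049087 (minus strand) for Ly6c1, chr15:75111972-75112221 (minus) for Ly6c2 and chr15:75155011-75155260 (plus) for Ly6g.
Ly6c1: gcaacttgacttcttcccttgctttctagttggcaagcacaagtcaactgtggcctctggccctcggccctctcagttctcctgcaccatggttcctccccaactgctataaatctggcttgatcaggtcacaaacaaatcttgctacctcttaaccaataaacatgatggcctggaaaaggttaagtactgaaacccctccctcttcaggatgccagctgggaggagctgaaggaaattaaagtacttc
Ly6c2: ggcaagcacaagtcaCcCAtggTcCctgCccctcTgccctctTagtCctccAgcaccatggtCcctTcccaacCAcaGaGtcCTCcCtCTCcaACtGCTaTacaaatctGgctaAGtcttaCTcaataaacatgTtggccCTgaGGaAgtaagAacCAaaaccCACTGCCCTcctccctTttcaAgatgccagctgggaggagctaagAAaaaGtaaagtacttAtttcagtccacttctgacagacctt
Ly6g: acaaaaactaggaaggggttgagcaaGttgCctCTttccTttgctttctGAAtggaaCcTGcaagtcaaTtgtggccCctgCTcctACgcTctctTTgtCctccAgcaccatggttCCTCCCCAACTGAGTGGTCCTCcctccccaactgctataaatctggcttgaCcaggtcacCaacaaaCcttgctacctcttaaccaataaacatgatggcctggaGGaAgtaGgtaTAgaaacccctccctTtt
Ly6c1 and Ly6c2 were identical at 72.9% of 229 aligned columns, Ly6c1 and Ly6g at 75.7% of 230, and Ly6c2 and Ly6g at 68.2% of 201. TTCNNNGAA, the letters of the site bound by STAT factors, occurs on neither strand of these 3 windows, and 7.02% of 32851 mouse promoters cut to the same length hold it. The core of the interferon-stimulated response element, held by 2.98% of them, was also without a match.

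Each gene had its own distribution over the cell types, and Ly6e was the most widespread. The B cell gate held 92.0% of all 41764 Ly6d UMIs, the neutrophil gate 97.8% of the 1396 Ly6g UMIs and the T cell gate 87.3% of the 581 Ly6c1 UMIs. Ly6c2 was divided, with 26.6% of its 13692 UMIs in T cells, 21.1% in plasma cells and 14.2% in classical monocytes. Of the Ly6a UMIs, 56.0% of 17925 lay in B cells, 18.7% in T cells and 15.7% in plasma cells. Cells set aside as mixed held 13.2% of the Ly6c2, 10.5% of the Ly6e and 9.12% of the Ly6c1 UMIs. They also held 6.48% of the Ly6a, 4.30% of the Ly6d and 0.215% of the Ly6g UMIs. These shares depend on gate size. Of 44751473 kept UMIs of all genes, B cells held 17820709, T cells 7997958 and neutrophils 2200877. Plasma cells held 1843806, classical monocytes 1100463 and mixed cells 4956942. Ly6e was found in 82.5% of kept cells, Ly6d in 54.7% and Ly6a in 50.4%.

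**Figure D1:**
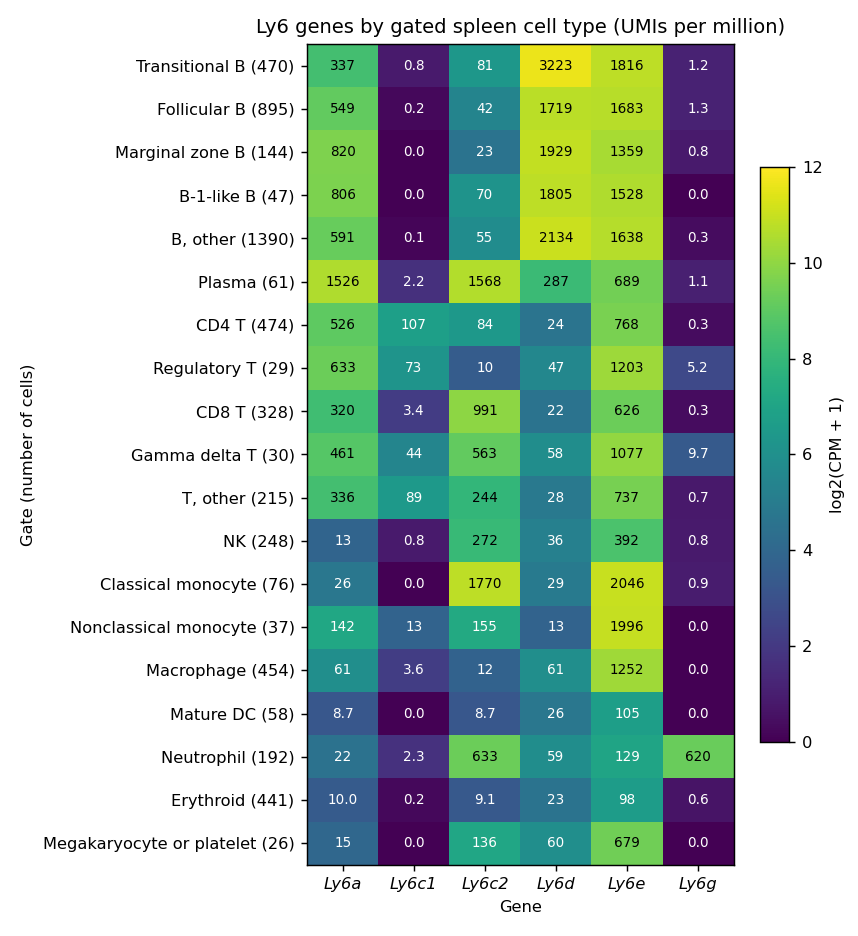
Level of each Ly6 gene in the 19 gates of at least 20 cells, in UMIs per 1000000 UMIs of the gate (CPM), written in each square and coloured by log2(CPM + 1). Rows are gates with their number of cells. Ly6d is high in every B cell gate, Ly6g in neutrophils alone, and Ly6c2 is highest in classical monocytes and plasma cells. Ly6c1 is seen in CD4, regulatory and other T cells, and in gamma delta T cells from 9 UMIs in 3 cells. In CD8 T cells it stands at 3.39 CPM.

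Ly6d, the B-lineage marker, stood at 2155 CPM (UMIs per 1000000 UMIs of the gate) in B cells (95% interval 2134 to 2177) and 25.4 CPM in T cells (22.0 to 29.1), a log2 ratio of 6.41 (6.21 to 6.61). Of the 5 Ly6 genes with enough UMIs in that comparison, Ly6d and Ly6e were at least 2-fold higher in B cells, as were 10.5% of all 9417 genes, and Ly6c1 and Ly6c2 at least 2-fold lower, as were 8.53%. A Ly6d UMI was found in 97.4% of B cells and in 15.4% of T cells, at median depths of 5129.5 and 6913 UMIs. After thinning each cell to 1000 UMIs the shares were 79.8% and 2.62%. Across the 13 gates outside the B, plasma and plasmacytoid gates, Ly6d lay at 0.600% to 2.81% of its B cell level. Cd79a, a B cell receptor component, lay at 0.579% to 2.60% of its own B cell level in the same gates. Other genes had other ranges, 1.02% to 5.25% for Cd79b, 0.302% to 2.07% for Ms4a1, 0% to 1.63% for Ebf1 and 1.01% to 117% for Cd74. Cd79a, Cd79b and Ms4a1 belong to the gene list of the B cell gate. The 3-fold lead required of every other gate limits them there, so they are no free measure of B cell RNA. Ebf1 and Cd74 are outside that list. Gate by gate Ly6d and Cd79a did not always run together: gamma delta T cells had 2.70% for Ly6d and 0.579% for Cd79a, and mature dendritic cells 1.21% and 2.60%. In neutrophils 6 cells held 69.0% of the Ly6d UMIs. The part of RNA from B cells in these low counts was not tested.

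Within B cells Ly6d was highest in the transitional gate, named for the recent arrivals from bone marrow. This gate needed at least 2 UMIs over Cd93, Akap12 and Vpreb3. Marginal zone cells needed at least 2 genes of S1pr3, Cd9, Nebl, Myof and Dtx1. B-1-like cells needed at least 2 of Bhlhe41, Zbtb32, S100a6 and Itgb1, and follicular cells an Fcer2a UMI. A cell had to meet exactly 1 of these rules. The subsets were not checked by genes kept out of the gating. Ly6d stood at 3223 CPM in 470 transitional cells, 1929 in 144 marginal zone cells, 1805 in 47 B-1-like cells and 1719 in 895 follicular cells. The 1390 B cells that met no rule or more than 1 stood at 2134 CPM. Mki67, a cell cycle gene, stood at 121 CPM in transitional and 6.25 CPM in follicular cells. The intervals of marginal zone and B-1-like cells overlapped, as did those of B-1-like and follicular cells. Transitional cells exceeded follicular cells by 0.91 on the log2 scale (0.86 to 0.95), short of 2-fold, and by that measure no Ly6 gene passed 2-fold in either direction among the 4 tested there, against 2.21% of 6790 genes higher and 0.766% lower. Ly6d did pass 2-fold there with each cell weighted equally (1.08) and after thinning to 1000 UMIs (1.12). Ly6a was lowest where Ly6d was highest, in transitional cells. It stood at 337 CPM in transitional cells (314 to 360), 549 in follicular (528 to 570), 820 in marginal zone (769 to 873) and 806 in B-1-like cells (718 to 901). The log2 ratio of transitional to follicular cells was -0.71 (-0.82 to -0.59), and of marginal zone to follicular cells 0.58 (0.47 to 0.68). Again none of the 4 genes tested passed 2-fold between marginal zone and follicular cells (1.9% of 6112 genes higher, 4.83% lower) or between B-1-like and follicular cells (1.63% of 5661 higher, 5.92% lower). With a 5% mitochondrial maximum the Ly6a ratio of transitional to follicular cells turned to 0.19 and the Ly6d ratio of marginal zone to follicular cells to -0.11. That limit left 42 transitional, 33 marginal zone and 68 follicular cells, since B cells carried a median of 6.64% mitochondrial UMIs.

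Ly6c2 was sparse in B cells, at 53.5 CPM (50.1 to 57.0). No UMI was seen in 2542 of 2946 B cells, and the 51 cells with at least 5 UMIs held 45.2% of the total. It ranged from 22.6 CPM in marginal zone to 80.7 CPM in transitional cells, where 1 cell held 23.6% of the UMIs. The log2 ratio of marginal zone to follicular cells was -0.90 (-1.54 to -0.32), but -0.03 with each cell weighted equally and 0.95 with the 5% mitochondrial maximum. That of transitional to follicular cells was 0.93 (0.64 to 1.22), and -0.57 with that maximum.

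Plasma cells, which secrete antibody, carried far more Ly6c2 and more Ly6a than B cells. Ly6c2 reached 1568 CPM in 61 plasma cells (1512 to 1627), 29.3 times its B cell level (27.3 to 31.6). Ly6a reached 1526 CPM (1470 to 1583) against 564 in B cells (553 to 575), a log2 ratio of 1.44 (1.38 to 1.50). Ly6d fell to 287 CPM (263 to 313) and Ly6e to 689 (651 to 728), log2 ratios of -2.91 and -1.26. Ly6a and Ly6c2 were thus 2 of 4 genes at least 2-fold higher, against 4.54% of 8795 genes, and Ly6d and Ly6e 2 of 4 at least 2-fold lower, against 60.6%. The median gene stood at -1.16 in this comparison, so the value for Ly6e is close to that of a typical gene. Immunoglobulin transcripts take up much of a plasma cell's UMIs. Without immunoglobulin, haemoglobin, mitochondrial and ribosomal protein genes in the total, the log2 ratios were 2.23 for Ly6a, 5.67 for Ly6c2, -2.11 for Ly6d and -0.47 for Ly6e. With size factors they were 2.57, 6.01, -1.77 and -0.13, and after thinning to 1000 UMIs that of Ly6d was -3.55.

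Single plasma cells varied widely. Their Ly6a counts had a median of 33 UMIs and a maximum of 193, and their Ly6c2 counts a median of 21 and a maximum of 292, while 8 of the 61 had no Ly6c2 UMI. Ly6a and Ly6c2 were found together in 49 plasma cells, Ly6a alone in 8 and Ly6c2 alone in 4. Plasma cells were also the deepest of the larger gates, with a median of 29506 UMIs. Their Ly6d stood at 13.3% of the B cell level beside 13.7% for Cd79a and 2.71% for Ms4a1, both genes of the B cell gate. Outside that list, Ebf1 stood at 1.98% and Cd74 at 18.7%.

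**Figure D2:**
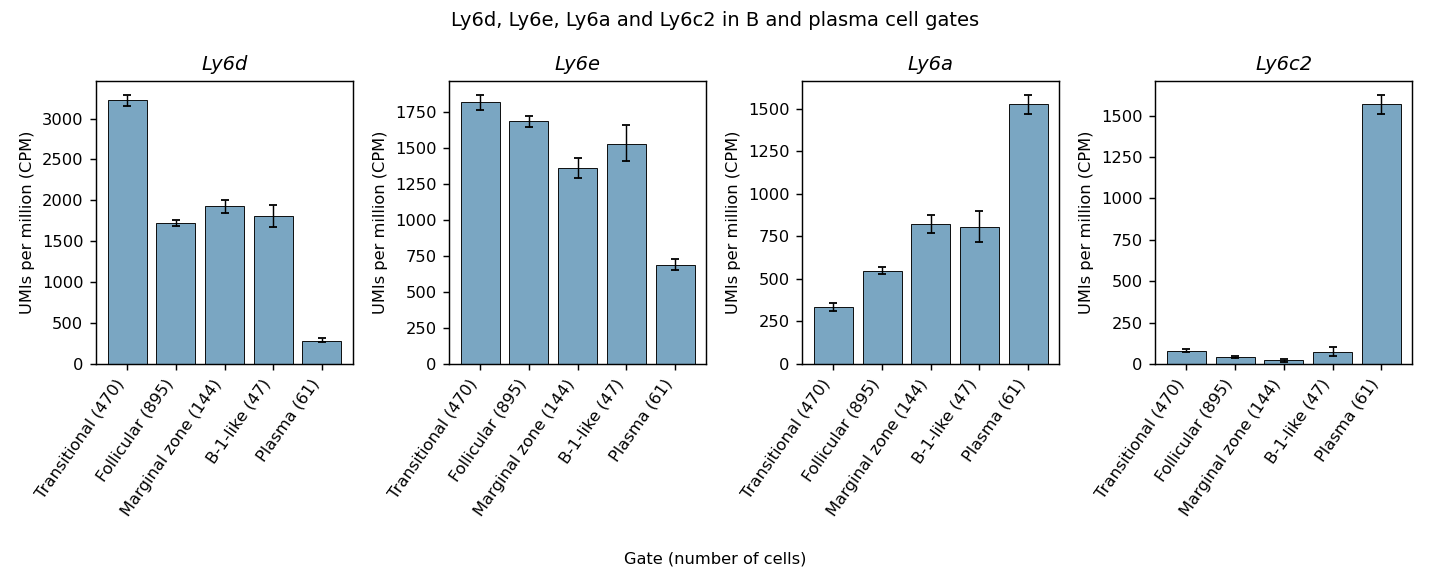
Levels in B cell subsets and plasma cells in CPM, with the number of cells of each gate in parentheses. Bars are the summed level of a gate and error bars are exact 95% Poisson intervals. Ly6d falls from 3223 CPM in transitional cells to 287 in plasma cells, while Ly6a rises from 337 to 1526 and Ly6c2 stands out in plasma cells alone.

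In T cells the near copies Ly6c1 and Ly6c2 were counted in different subsets. CD4 T cells had 107 CPM of Ly6c1 (96.5 to 119) and CD8 T cells 3.39 (1.63 to 6.24). Ly6c2 was the reverse, at 84.0 CPM in CD4 (74.4 to 94.5) and 991 in CD8 T cells (955 to 1028). The log2 ratios of CD4 to CD8 were 4.98 for Ly6c1 (4.09 to 6.06) and -3.56 for Ly6c2 (-3.74 to -3.38). Of 5 Ly6 genes tested, Ly6c1 was at least 2-fold higher in CD4 T cells, as were 1.44% of 6192 genes, and Ly6c2 at least 2-fold lower, as were 1.95%. The Ly6c1 ratio rests on 10 UMIs in CD8 T cells. It was 3.86 after thinning to 1000 UMIs and 5.69 without the cell with the most UMIs in each gate. Ly6a was modestly higher in CD4 T cells, 526 against 320 CPM, and Ly6e slightly, 768 against 626.

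The naive or effector-memory state divided the genes further. Naive cells had at least 1 UMI of a naive list that includes Ccr7, Lef1, Dapl1 and Igfbp4, and at most 1 gene of the effector list (Ccl5, Nkg7, Cxcr3, Gzmk, Cxcr6, S100a4, Itgb1 and Id2). Effector-memory cells had at least 2 genes of the effector list and more effector than naive UMIs. In 300 naive CD4 T cells Ly6c1 stood at 157 CPM (140 to 175), and in 98 effector-memory CD4 T cells at 5.17 (1.41 to 13.2), a log2 ratio of -4.92 (-6.81 to -3.55). A Ly6c1 UMI was found in 41.0% of naive and 3.06% of effector-memory CD4 T cells, at median depths of 6562 and 6349.5 UMIs, against 0.136% of B cells. Ly6c2 moved the other way, from 8.16 CPM in naive (4.67 to 13.3) to 300 CPM in effector-memory CD4 T cells (262 to 341), a log2 ratio of 5.20 (4.47 to 6.03), or 5.78 after thinning. Ly6a rose from 412 to 903 CPM, a log2 ratio of 1.13 (0.99 to 1.28). Ly6a and Ly6c2 were 2 of 4 genes at least 2-fold higher, against 5.71% of 3710 genes, and Ly6c1 the only one at least 2-fold lower, against 2.1%. Ly6a fell short of 2-fold without immunoglobulin, haemoglobin, mitochondrial and ribosomal protein genes in the total (0.89) and with size factors (0.85). The Ly6c1 ratio rests on 4 UMIs in effector-memory cells and reached -6.31 with a 5% mitochondrial maximum and -5.88 without the cell with the most UMIs in each gate.

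CD8 T cells showed the same directions for Ly6c1 and Ly6c2, from a higher Ly6c2 level. Ly6c2 stood at 305 CPM in 38 naive cells (241 to 382) and 1406 in 145 effector-memory cells (1345 to 1469), a log2 ratio of 2.20 (1.87 to 2.55). The remaining CD8 T cells entered neither state. Ly6a differed less than in CD4 T cells, at 301 and 404 CPM, a log2 ratio of 0.42 (0.07 to 0.79). Ly6c2 was the 1 of 3 genes tested that was at least 2-fold higher, against 8.3% of 2385 genes, and none was lower, against 0.797%. Of the 10 Ly6c1 UMIs in CD8 T cells, 8 fell in naive cells (32.1 CPM, 13.9 to 63.3) and 1 in effector-memory cells. Naive CD4 T cells exceeded naive CD8 T cells in Ly6c1 by 2.28 on the log2 scale (1.29 to 3.51), which made it 1 of 3 genes at least 2-fold higher, against 2.3% of 2951 genes, with none lower, against 0.576%. Without the cell with the most UMIs in each gate that value was 3.22, and after thinning 1.69. Ly6c2, with fewer than 100 UMIs over both, had a log2 ratio of -5.23 (-6.10 to -4.43), which was -4.59 with a 5% mitochondrial maximum.

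Regulatory T cells, the suppressive Foxp3 cells, carried Ly6c1 and almost no Ly6c2. All 14 of their Ly6c1 UMIs fell in the 14 naive cells (168 CPM, 91.7 to 281). The 14 effector-memory regulatory cells had none, which allows up to 30.3 CPM. Ly6c2 had 2 UMIs in all 29 regulatory cells, 10.4 CPM (1.26 to 37.5). Against other CD4 T cells Ly6c2 was the 1 of 4 genes at least 2-fold lower, against 5.41% of 4475 genes, and none was higher, against 4.11%. Ly6e was higher, at 1203 CPM against 768, a log2 ratio of 0.65 (0.45 to 0.84). The Ly6c1 ratio was -0.56 with an interval that held 0 (-1.45 to 0.20), and 0.86 after thinning.

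Gamma delta T cells (30 cells) had 563 CPM of Ly6c2 (465 to 675), below CD8 T cells by a log2 ratio of -0.82 (-1.10 to -0.55). None of the 3 genes tested passed 2-fold, against 4.08% of 4068 genes higher and 3.44% lower. Ly6c2 passed it at -1.08 with a 5% mitochondrial maximum or without the cell with the most UMIs in each gate, and Ly6e at 1.13 after thinning.

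Cells with both transcripts were few. Among 474 CD4 T cells, 138 had Ly6c1 alone, 40 had Ly6c2 alone, 8 had both and 288 had neither. Among 328 CD8 T cells the numbers were 4, 250, 2 and 72. Ly6c1 was seen in few CD8 and Ly6c2 in few CD4 T cells, which keeps such cells few. Within naive CD4 T cells Ly6c2 was found in 4.88% of cells with Ly6c1 and 4.52% of cells without it. Only 14 of these 300 cells had a Ly6c2 UMI, 6 of them with Ly6c1, too few to show avoidance or its absence. The part of reads shared between Ly6c1 and Ly6c2 in their totals was not tested.

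**Figure D3:**
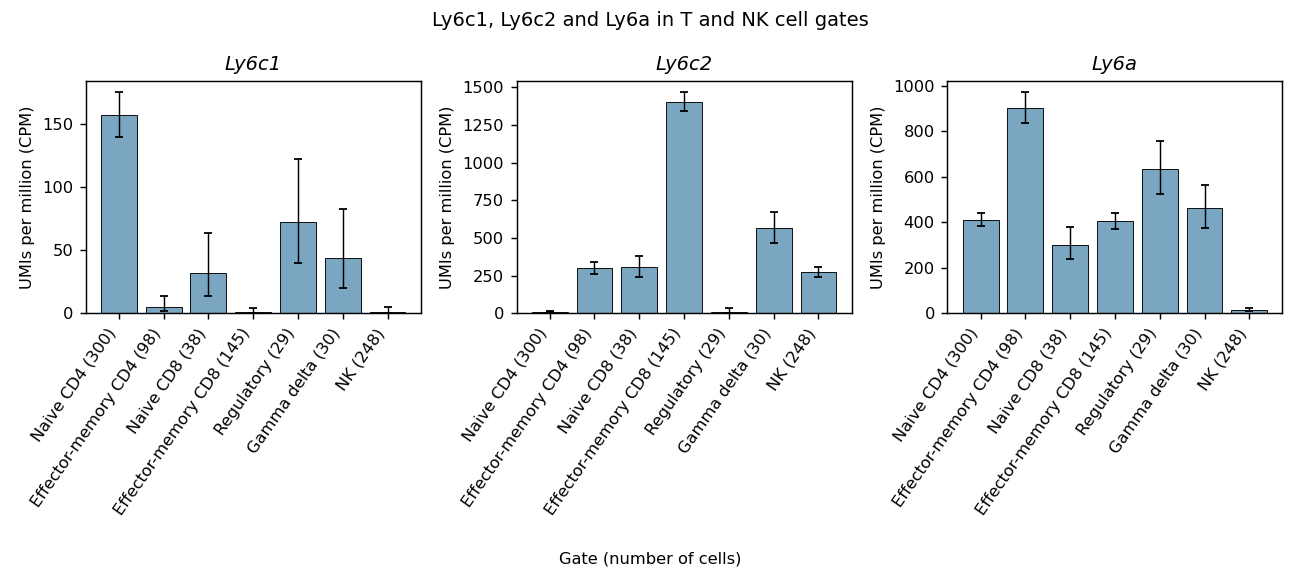
Levels of Ly6c1, Ly6c2 and Ly6a in T and NK cell gates in CPM, with the number of cells in parentheses. Bars are summed levels and error bars exact 95% Poisson intervals. Ly6c1 is highest in naive CD4 T cells at 157 CPM, Ly6c2 in effector-memory CD8 T cells at 1406 and Ly6a in effector-memory CD4 T cells at 903.

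NK cells, innate killer lymphocytes, carried little Ly6a. It stood at 13.4 CPM (7.67 to 21.8) against 418 in T cells (404 to 433), a log2 ratio of -4.96 (-5.77 to -4.26). Ly6c2 was present at 272 CPM (244 to 304). It was seen in 75 of 248 NK cells, and the 34 cells with at least 5 UMIs held 73.8% of the total. Ly6a and Ly6c1 were 2 of 5 genes at least 2-fold lower than in T cells, against 7.64% of 7420 genes, and none was higher, against 9.07%. Ly6c2 was lower than in T cells by -0.74 (-0.91 to -0.58), a value that was -0.03 after thinning and -1.08 without immunoglobulin, haemoglobin, mitochondrial and ribosomal protein genes in the total. Ly6e was -0.89 (-1.03 to -0.76), and -1.23 with that total.

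Among myeloid cells Ly6c2 differed between the gated monocyte types, in the direction known from Ly-6C antibodies. A further 21 cells with the lists of both monocyte types in the lead were set aside as mixed. Their Ly6c2 is not given. Ly6c2 stood at 1770 CPM in 76 classical monocytes (1692 to 1851) and was found in 74 of them. In 37 nonclassical monocytes, the patrolling type, it stood at 155 CPM (109 to 215) and 1 cell held 52.8% of the UMIs. The log2 ratio was 3.51 (3.04 to 4.03), 4.48 without the cell with the most UMIs in each gate, 4.52 when a gate needed 3 lineage genes and 4.33 after thinning. Ly6c2 was 1 of 2 genes tested, and 10.1% of 2202 genes were at least 2-fold higher and 8.67% lower. Ly6c1 had no UMI in classical monocytes, which allows up to 2.73 CPM. Ly6a was low in both, at 26.4 CPM in classical (17.6 to 37.8) and 142 in nonclassical monocytes (97.9 to 200), a log2 ratio of -2.43 (-3.20 to -1.67) that was -3.36 after thinning. Macrophages had 12.5 CPM of Ly6c2 (5.02 to 25.7).

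Ly6g was found in neutrophils and almost nowhere else. Neutrophils had 620 CPM (588 to 654), and a UMI was found in 64.6% of them against 0.407% of B cells, at median depths of 11836 and 5129.5 UMIs. Stage split it strongly. The 127 granule-making neutrophils, with more UMIs of Ngp, Camp, Ltf, Cebpe and Chil3 than of the late list, had 672 CPM (636 to 709). The 65 late neutrophils, with more of Il1b, Cxcr2, Il1r2, G0s2 and Mmp8, had 96.5 CPM (58.1 to 151) from 19 UMIs. The log2 ratio was 2.80 (2.15 to 3.54). Ly6c2 fell with it, from 679 CPM (644 to 716) to 168 (115 to 235), a log2 ratio of 2.02 (1.52 to 2.56). Ly6e rose instead, from 87.8 CPM (75.3 to 102) to 553 (454 to 668), a log2 ratio of -2.66 (-3.01 to -2.30). Ly6c2 and Ly6g were 2 of 4 genes at least 2-fold higher in the granule-making stage, against 15% of 2006 genes, and Ly6e 1 of 4 lower, against 30.6%. Median depth moved with stage, from 14674 to 2709 UMIs, and the median gene stood at -0.37. With every cell thinned to 1000 UMIs the log2 ratios were 3.04 for Ly6g, 1.83 for Ly6c2 and -2.90 for Ly6e.

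Granule-making neutrophils were also split by 4 cell cycle genes, a split chosen after the values were seen. Ly6g was highest in the cells with at most 1 of these genes. The 40 cells with at least 2 of Mki67, Top2a, Ccnb1 and Cdk1 had 273 CPM of Ly6g (239 to 310), and the other 87 had 977 (921 to 1037). Median depth was 22586.5, 12538 and 2709 UMIs in cycling, other granule-making and late cells. With each cell thinned to 1000 UMIs, Ly6g stood at 225, 1012 and 92.3 CPM in that order. Ly6c2 differed less, at 604 (553 to 658) and 737 CPM (688 to 788). In 114 granule-making cells Ly6c2 and Ly6g were found together, Ly6c2 alone in 8 and Ly6g alone in none.

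**Figure D4:**
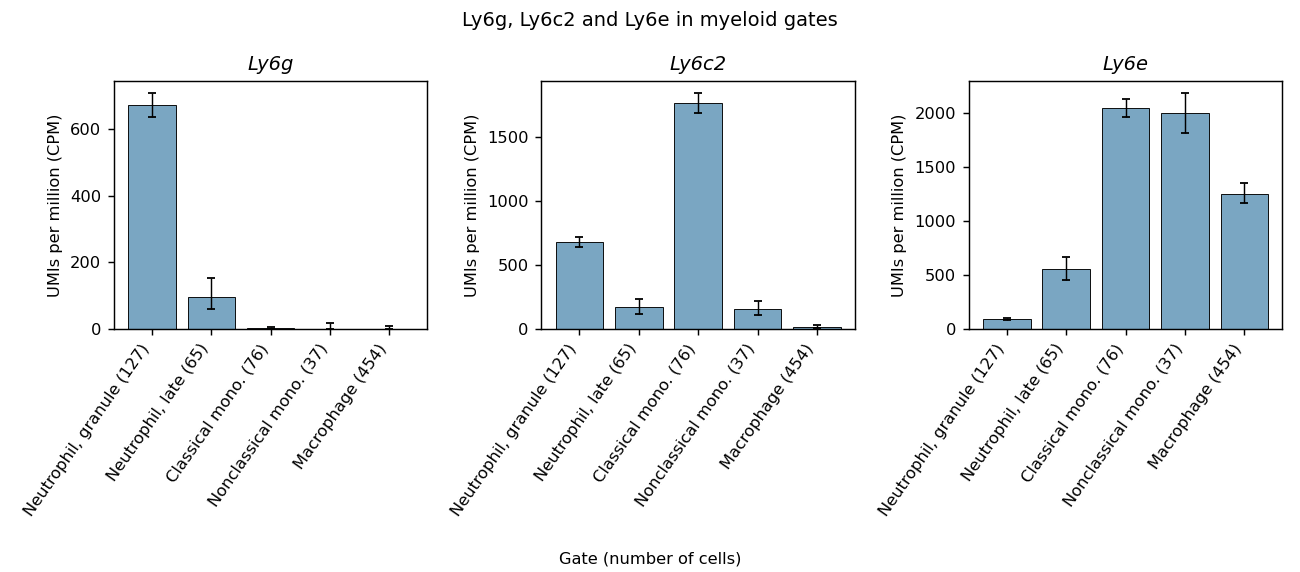
Levels of Ly6g, Ly6c2 and Ly6e in neutrophil stages, monocytes and macrophages in CPM, with the number of cells in parentheses. Bars are summed levels and error bars exact 95% Poisson intervals. Ly6g reaches 672 CPM in granule-making neutrophils and stands at 1 UMI in classical monocytes and at 0 in nonclassical monocytes and macrophages, where a count of 0 allows up to 12.9 and 5.35 CPM, Ly6c2 is highest in classical monocytes, and Ly6e is lowest in granule-making neutrophils.

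Plasmacytoid dendritic cells (pDC), the main type I interferon producers, carried 4 of the 6 genes at high levels. In 13 cells Ly6d stood at 2533 CPM (2285 to 2801), Ly6e at 2640 (2386 to 2913), Ly6a at 1800 (1591 to 2028) and Ly6c2 at 1586 (1391 to 1801). Each of these 4 was at least 2-fold higher than in the 16 conventional dendritic cells, against 20.9% of the 306 genes with enough UMIs, and none was lower, against 11.4%. The Ly6d log2 ratio was 6.30 (4.74 to 8.58) and rests on 3 UMIs in the conventional cells. The Ly6c2 ratio was 3.21 (2.48 to 4.04), and 4.81 without the cell with the most UMIs in each gate, 4.63 with 3 lineage genes required and 4.67 with each cell weighted equally. Of the 16 Ly6c2 UMIs in the conventional cells, 12 came from 1 cell of the cDC2 gate, which was not borne out above. A Ly6d UMI was found in all 13 pDC, and 1 of them held 32.4% of the UMIs. Unlike the low counts of other gates, Ly6d stood at 118% of its B cell level. Cd79a lay at 0.597% and Ms4a1 at 1.16% of theirs, but both are genes of the B cell gate that gating limits here. Outside that list, Ebf1 stood at 0% and Cd74 at 55.9%. With a 5% mitochondrial maximum 1 pDC was left, and the Ly6e log2 ratio went from 1.19 to 0.32.

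Ly6e, the broadest member, was highest in monocytes and low in erythroid cells and neutrophils, among the gates of at least 20 cells. It stood at 2046 CPM in classical (1962 to 2132) and 1996 in nonclassical monocytes (1818 to 2186), whose intervals overlapped. B cells had 1655 (1636 to 1674), macrophages 1252 (1161 to 1348), T cells 729 (710 to 748) and NK cells 392 (358 to 429). Erythroid cells had 97.7 CPM (89.5 to 106), next to mature dendritic cells at 105 (54.0 to 183) and neutrophils at 129 (115 to 145), which did not differ beyond their intervals from their neighbours in that order. The neutrophil value joins both stages, with 87.8 CPM in granule-making and 553 in late cells (454 to 668), the latter above NK cells.

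Some B and T cells carried several transcripts of interferon-response genes, and Ly6a and Ly6c2 stood higher in them. The 10 genes counted were Ifit1, Ifit2, Ifit3, Ifit3b, Rsad2, Oasl1, Cmpk2, Cxcl10, Usp18 and Ifi44. Ly6a in B cells stood at 465 CPM with 0 of these genes (1862 cells), 643 with 1 to 2 (873 cells) and 963 with at least 3 (211 cells). Ly6a in T cells stood at 324, 379 and 709 CPM (401, 502 and 173 cells). The log2 ratio of at least 3 to 0 was 1.05 in B cells (0.96 to 1.14) and 1.13 in T cells (1.0 to 1.26). These ranges are cuts on a count and not cell types, and 79 B cells and 68 T cells sat at exactly 3 genes. Median depth was 5780 UMIs with at least 3 and 4935.5 with 0 genes in B cells, and 7461 and 6568 in T cells.

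Ly6c2 was also higher, from different levels in the 2 lineages, and depended on the depth at which interferon genes were counted. In B cells it stood at 38.4 CPM with 0 genes and 136 with at least 3, a log2 ratio of 1.82 (1.57 to 2.07). In the latter, 1 cell held 24.0% of the UMIs, and the ratio was 1.48 without the cell with the most UMIs in each gate and 0.72 when interferon genes were counted after thinning. In T cells it stood at 403 and 635 CPM, a log2 ratio of 0.66 (0.53 to 0.78), which was 0.12 when interferon genes were counted after thinning. Ly6e differed little in B cells, 1633 against 1832 CPM (log2 0.17, 0.11 to 0.22), and more in T cells, 689 against 907 (0.40, 0.29 to 0.50). Ly6d differed by 0.10 in B cells. Ly6a and Ly6c2 were 2 of 4 genes at least 2-fold higher in B cells, against 1.75% of 7942 genes, and none was lower, against 0.818%. Ly6a was 1 of 5 in T cells, against 1.6% of 5054, and none was lower, against 0.396%. After thinning to 1000 UMIs Ly6a in T cells was 0.66, short of 2-fold.

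Within subsets the difference held for Ly6a and rested on few cells for Ly6c2 in some. The Ly6a log2 ratio was 1.04 in follicular (0.86 to 1.21), 1.22 in transitional B cells (0.89 to 1.54), 1.01 in CD4 (0.83 to 1.19) and 1.46 in CD8 T cells (1.20 to 1.71). In transitional cells 1 cell held 45 of the 100 Ly6a UMIs with at least 3 genes, and the ratio was 0.58 (0.14 to 0.99) without the cell with the most UMIs in each range. That of Ly6c2 was 1.50 in follicular B cells (0.89 to 2.08) and 0.59 in CD8 T cells (0.45 to 0.73), and without those cells 1.22 (0.49 to 1.89) and 0.62 (0.47 to 0.77). In transitional B cells it was 2.74 (2.24 to 3.24), but 1 cell held 48 of the 60 UMIs, and without those cells the ratio was 0.68 with an interval that held 0 (-0.34 to 1.57). In CD4 T cells it was 0.54 (0.08 to 0.99), and 0.04 (-0.56 to 0.62) without them. Ly6c1 in CD4 T cells stood at 100 and 123 CPM, with an interval of the log2 ratio that held 0 (-0.15 to 0.74).

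**Figure D5:**
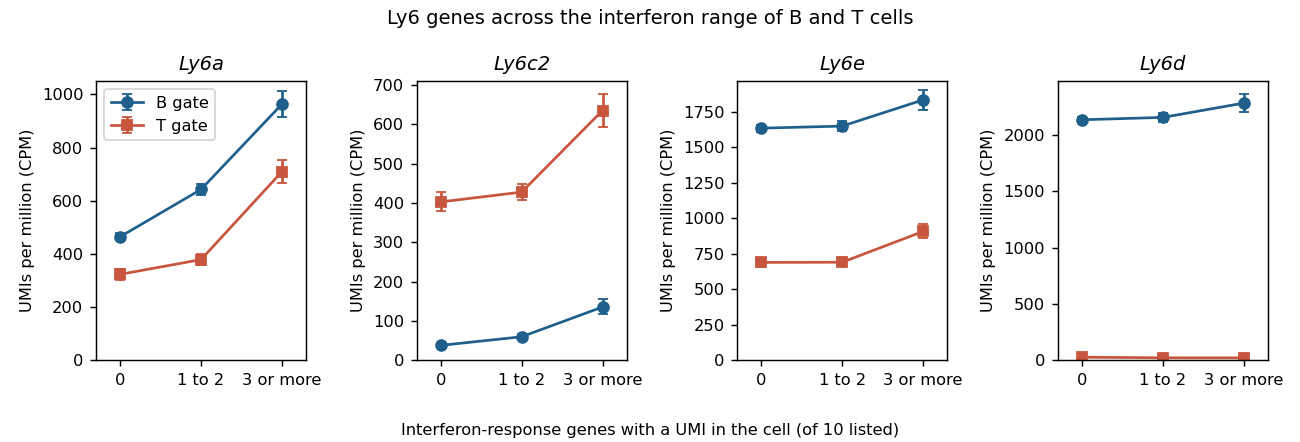
Levels of 4 Ly6 genes in CPM in B cells (circles) and T cells (squares) with 0, 1 to 2 or at least 3 of 10 interferon-response genes detected. Error bars are exact 95% Poisson intervals. Ly6a and Ly6c2 are highest with at least 3 genes in both lineages, although Ly6c2 in T cells is 403 and 428 CPM with overlapping intervals in the lower ranges, while Ly6d in B cells stays between 2136 and 2284 CPM.

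Other genes with the Ly6/uPAR domain were mostly near or at 0 in this spleen table. Of 40 listed, 34 were in the table, 6 reached 100 UMIs, 15 had fewer and 13 had none. Cd177, a neutrophil surface protein, stood at 875 CPM in neutrophils and 83.6 in classical monocytes. Plaur, the urokinase receptor, was highest in neutrophils at 272 CPM. Ly6i, a further gene of the Ly6c group, was highest in nonclassical monocytes, at 220 CPM (164 to 289) against 26.4 in classical monocytes. Lynx1 was highest in transitional B cells at 91.4 CPM (80.0 to 104). Ly6k stood at 23.5 CPM in B-1-like cells (10.7 to 44.6, 9 UMIs), 22.6 in marginal zone cells (14.9 to 32.9) and 18.4 in plasma cells (12.8 to 25.8), which did not differ beyond their intervals. Cd59a, a complement inhibitor, stood at 21.1 CPM in erythroid cells (17.4 to 25.3).

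Across the 19 gates of at least 20 cells, the genes most like each member were found among 6526 genes by the Pearson correlation of log2(CPM + 10), a description in which gates share 1 library and differ in depth. Ly6d was closest to Tnfrsf13c, the BAFF receptor (r = 0.98), then Bcar3 and Fcmr. Ly6g was closest to Itgb2l (r = 0.99), then Chil1 and S100a9. Ly6c1 was closest to Trat1, a T cell receptor adaptor (r = 0.92), then Camk4 and Cd5. Ly6e was closest to Camk2d (r = 0.94), then Gtf2f2 and Rere, and Ly6a to Prmt7 (r = 0.89), then S100pbp and Mast4. Ly6c2 had the weakest best match, Ndufa1 (r = 0.72), then Atp8b4 and Ero1l. Between the near copies Ly6c1 and Ly6c2 the correlation was 0.0055.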

How the data were processed

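Spleen cells of 2 mice were profiled by droplet 3-prime sequencing on a 10x Genomics platform and mapped to mm10, per the labels' protocols and the submitters' processing notes. No source used here names the counting program. The authors deposited raw UMI counts, not normalized, as 1 table of 46882070 UMIs whose smallest barcode total is 500. Of 7524 barcodes, 101 had under 200 genes and 857 over 10% mitochondrial UMIs, and 936 were removed.

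A cell entered the lineage whose list had the most UMIs, if at least 2 genes of it were seen and it led every other list 3-fold. Doublets were handled as mixed cells. Scrublet (scanpy 1.11.5) called 137 cells (2.08%), 82 of them mixed, and its calls were removed only as an alternative. UMIs were summed per gate over the gate's total (CPM). Intervals are 95%: exact Poisson for levels, Clopper-Pearson for shares and conditional binomial for ratios, computed with scipy 1.17.1. A count of 0 was read as up to 3 counts. For each of 17 comparisons, genes with at least 100 UMIs over both gates gave the share past 2-fold and the median difference of log2(CPM + 1). Check genes were compared with an offset of 1 CPM. The ratio step was tested on simulated counts, and gating was run on cells drawn from the profiles of gated B and T cells. Thinning was checked on deposited cells only for the number of UMIs kept.

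The named genes are the members in every gate, the 3 genes most correlated with each (at least 500 UMIs, without gate, receptor, haemoglobin, mitochondrial, ribosomal, sex-linked and unnamed genes) and other Ly6/uPAR genes with at least 100 UMIs. Members, lists and comparisons were chosen with earlier results of these data known. The measure of shared words (longest coding transcript instead of all coding transcripts) and the promoter alignment (free instead of penalised ends; match 1, mismatch -1) were changed after their first results were seen. A planned comparison of protein sequences was not made. A gene used in the naive list and among the check genes is not reported here.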

Additional observations from a re-analysis of the deposited data

How the results depend on the processing

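Of 730 alternative values for 66 log2 ratios under 12 settings, 621 lay inside the 95% interval of the reported ratio, 103 lay outside and 6 reversed a ratio whose interval excluded 0. The settings contributed unequally. Thinning to 1000 UMIs left 31 of 62 values inside, and the 5% mitochondrial maximum 43 of 65. Counting interferon genes after thinning to 2000 UMIs left 1 of 9 inside. In all 14 changed sign, 6 with the 5% mitochondrial maximum, 6 after thinning, 1 with size factors and 1 with interferon genes counted after thinning. The 8 that are not reversals belong to ratios whose interval held 0. The 21 ratios taken as the main value of a comparison were chosen after levels had been seen. Of their 231 alternative values, 199 lay inside the interval, 30 outside and 2 reversed. For those that moved or changed sign the cause was not tested.

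With at most 5% mitochondrial UMIs, which cut B cells from 2946 to 313, Ly6a of transitional against follicular cells changed sign to 0.19, Ly6d of marginal zone against follicular cells to -0.11, Ly6c2 of transitional and of marginal zone against follicular cells to -0.57 and 0.95. Ly6d became 6.06 for B against T and 0.66 for B-1-like against follicular cells, Ly6c2 of plasma against B cells 5.32, and Ly6a of the interferon range in B cells 1.30. Without immunoglobulin, haemoglobin, mitochondrial and ribosomal protein genes in the total, Ly6a and Ly6c2 of plasma against B cells were 2.23 and 5.67, Ly6d of transitional and of marginal zone against follicular cells 0.81 and 0.28, and Ly6a of effector-memory against naive CD4 T cells 0.89. With size factors these were 2.57, 6.01, 0.78, 0.25 and 0.85, Ly6a of transitional against follicular cells was -0.83, and Ly6e there changed sign to -0.017. With each cell weighted equally Ly6d of transitional against follicular cells was 1.08.

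After thinning to 1000 UMIs, Ly6a was 1.31 for plasma against B, -0.83 for transitional against follicular, 1.28 for effector-memory against naive CD4 T cells, and 1.14 and 0.66 for the interferon range in B and T cells. Ly6d was 1.12, 0.26 and 0.24 for transitional, marginal zone and B-1-like against follicular cells, Ly6c1 of CD4 against CD8 T cells 3.86, and Ly6c2 of classical against nonclassical monocytes 4.33. Ly6c2 of B-1-like against follicular cells changed sign to -0.96. With interferon genes counted after thinning to 2000 UMIs, Ly6a in T cells was 1.26. With 3 lineage genes required, the monocyte ratio of Ly6c2 was 4.52. Without the cell with the most UMIs of the gene in each gate, an alternative added after the data were seen, that ratio was 4.48 and Ly6a of plasma against B cells 1.36. The 500-gene minimum, no mitochondrial maximum, a 5-fold lead and removal of Scrublet calls moved none of the 66 ratios outside its interval.

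With a minimum of 1 UMI in place of 100, the share of genes past 2-fold ran from 8.09% to 63.8% over the comparisons and directions, against 0.396% to 60.6%. Over all coding transcripts, shortened models included, the shared words were 29.4% for Ly6c1, 35.4% for Ly6c2, 9.27% for Ly6a and 0.313% for Ly6g. With penalised ends the promoter identities were 59.5% for Ly6c1 and Ly6c2, 59.7% for Ly6c1 and Ly6g and 51.1% for Ly6c2 and Ly6g. The removal of top cells from interferon ranges within subsets and the thinned neutrophil split were also added after the data were seen. No paired analysis was possible because the table does not say which mouse a barcode came from. Ratios on fewer than about 10 UMIs are limited by depth, and 1 pooled sample gives no error between animals.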
